A study of Drosophila melanogaster with 16 samples.

Results

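The chemosensory receptor genes of Drosophila were examined in sorted motor neurons (MNs) of ageing flies. They were taken as all genes whose current symbol is Or, Gr or Ir followed by a number and a letter, and each microarray feature (1 probe design, printed in 1 or more spots) was assigned to its gene by the transcript accession it carries. Of the 185 such genes in the RefSeq gene table used for names, 175 had features: 57 of 59 Or genes, 58 of 60 Gr genes and 60 of 66 Ir genes. These 175 of 12980 genes on the array held 894 of its 45366 features, and no feature was shared with a gene outside the 3 families. No feature was found for Gr64b, Gr64e, Ir47b, Ir48a, Ir51a, Ir56e, Ir60c, Ir60f, Or19b or Or85e. The odorant co-receptor Orco falls outside the naming rule and is used below as a marker.

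Odorant receptors (Or) and gustatory receptors (Gr) of insects are membrane proteins that form ligand-gated ion channels. Odorant receptors need the shared subunit Orco, whereas ionotropic receptors (Ir) descend from ionotropic glutamate receptors and work with the broadly used co-receptors Ir8a, Ir25a, Ir76b or Ir93a. They are best known from sensory neurons of the antenna, the maxillary palp, and taste organs of the mouthparts, legs and wings, where they detect odours, tastes, temperature and humidity.

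MNs carried green fluorescent protein (GFP) under the D42-Gal4 driver, were dissociated from the dissected thoracic ganglion of female flies and sorted for GFP, and the doubly amplified cDNA of each pool of cells from several flies was hybridized to a single-colour Agilent array. All flies carried the same driver and reporter and aged normally, and the groups were 5 pools at 7 days, 5 at 35 days and 6 at 45 days. The sorted cells are only those that D42 labels, and a pool mixes flies. The question was how the levels differ between young and old MNs.

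Between 56.7% and 67.1% of the spots were well above background on each array by the scanner software's call, and no spot was saturated. The lowest share was that of 45-day replicate 4, whose median feature level, on the scale defined below, was -6.36 against -4.72 to -3.92 on the other arrays. Neuronal markers elav, nSyb, brp, Syt1 and para were well above background in all 16 arrays for 717 of their 770 features. By gene this was 586 of 591 for para but only 49 of 95 for brp. The motor neuron markers twit, exex, tup and Lim3 were so for every feature. Another marker, eve, was so on 6 arrays, and VGlut had no feature. RNA of other cells was also present: the glial gene repo, the muscle gene Mhc and the yolk protein genes Yp1, Yp2 and Yp3, made in the fat body, were well above background on all 16 arrays. The other genes of these lists were not so for every feature. The muscle gene up had 0 of 172 features so on all 16 arrays, sls 1 of 17 and wupA 4 of 5, and Act88F was so on 14 arrays. In the fat body list, Lsp2 was so on 13 arrays and Fbp1 had 0 of 3 features so on all 16. The glial genes moody, Gs2 and Eaat1 had 1 of 2, 2 of 4 and 2 of 3. Of 6 features of hemocyte markers, 0 were so on all 16 arrays. Markers of olfactory neurons and their support cells were low. Orco was well above background on 2 arrays, Amt on 1, lush on none, the most often detected of 3 Snmp1 features on 7, and Snmp2 on 9. No feature of the mechanosensory channel genes nompC, iav and nan was so on all 16 arrays, and 20 of their 75 features were so on none. The summed linear level of the 5 olfactory accessory genes, in units of the 75th percentile of an array, was 0.00997 to 0.113 at 7 days, 0.00393 to 0.124 for the 35-day arrays and 0.00529 to 0.0859 for the 45-day arrays, ranges that overlap. The summed level of the 5 fat body genes was 3.03 to 19.4 at 7 days, 5.24 to 20.9 at 35 days and 10.4 to 35.1 at 45 days, ranges that also overlap. The part of such cells in the receptor values was not tested. No gene of any marker list passed a threshold between ages.

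Most receptor features were dim. A feature was called on in an array when 50% or more of its spots were well above background there. Of the 894 receptor features, 27 (3.02%) were on in all 16 arrays, 466 (52.1%) in some and 401 (44.9%) in none, whereas over the whole array these shares were 43.4%, 42.7% and 13.9%. The odorant receptors had 2 of 62 features on in all 16 arrays, the gustatory receptors 0 of 77 and the ionotropic receptors 25 of 755. By gene, 33 of the 175 had no feature on in any array (19 Or genes, 14 Gr genes and no Ir gene), and 7 had at least 1 feature on in all 16. Ir genes have 10 or more features each and Or and Gr genes mostly 1, because 700 custom features for Ir transcripts were printed in series of 10, so counts by gene are not comparable between families.

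**Figure D1:**
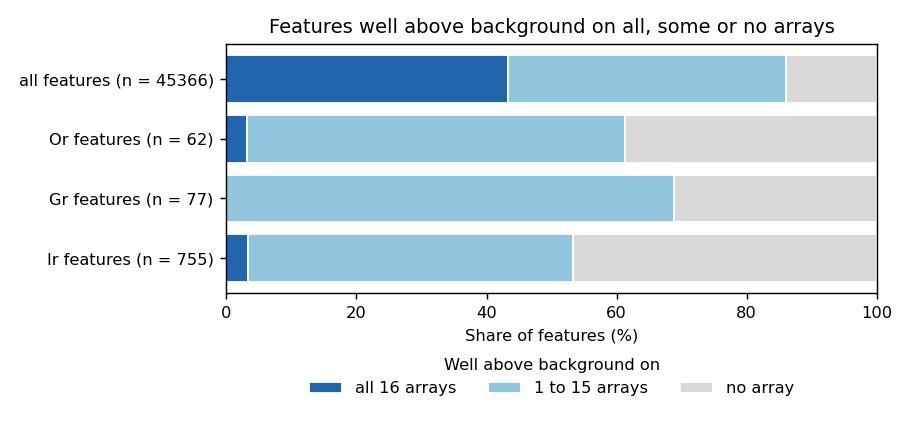
Share of features (%, horizontal axis) that were on in all 16 arrays, in 1 to 15 arrays or in no array, for all 45366 features and for the Or, Gr and Ir features. Receptor features have a far smaller dark segment (0 to 3.31%) than all features (43.4%).

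Ir76a held 20 of the 27 features that were on in all arrays. It has 41 features. The others were 2 of Ir76b and 1 each of Ir75d, Ir94a, Ir41a, Or85b and Or85f. For Or85b and Or85f, each with a single feature, this was the whole gene. Of the 7 genes, Ir76a overlaps CG14102 and Ir75d overlaps Prp6 and COX6AL2 in the gene table, which uses the Release 6 assembly. Over all 175 genes, 51 (29.1%) overlap another gene, and of the 10 with the highest gene levels 6 do. Strand was not used to separate overlapping genes, since probe positions were not used here.

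The 466 features that were on in some arrays were mostly on in few: 176 in exactly 1 array, 152 in 2 or 3, 107 in 4 to 8, and 31 in 9 to 15. Their ages were mixed. Arrays of all 3 ages had 108 of them on, 89 were on at 7 days only, 48 at 35 days only and 67 at 45 days only, 18 were on in every array of at least 1 age, and none was on in every array of 1 age and in no other. Whether these counts differ by age was not tested. The share of receptor features that were on in an array was 12.2 to 19.9% at 7 days (median 13.9%), 10.3 to 14.8% at 35 days (median 12.7%) and 8.06 to 17.7% at 45 days (median 12.0%), and these ranges overlap.

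Levels are given as log2 signal of a feature minus the 75th percentile of all features of that array, so that a level of 0 equals this percentile. Changes are the mean level at the older age minus that at the younger age, in log2 units. The threshold between 2 ages was a change above 2-fold together with an adjusted p below 0.05, and over the 3 ages it was the adjusted p alone. p-values are from limma and were adjusted over all 45366 features, or over all 12980 genes with a gene taken as the mean of its features.

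No receptor passed the threshold between any 2 ages. From 7 to 45 days 0 of 894 receptor features passed, against 0.375% of all features, and 0 of 175 genes, against 0.0077% of all genes. At an unadjusted p under 0.05 there were 39 receptor features (4.36%, against 8.46% of all) and 7 genes (4.00%, against 9.10% of all). From 7 to 35 days 0 features and 0 genes passed, against 0.097% and 0.108% of all, with 455 features (50.9%, against 27.2% of all) and 104 genes (59.4%, against 24.1% of all) at an unadjusted p under 0.05. From 35 to 45 days 0 features and 0 genes passed, against 0.0154% and 0.0077% of all, with 41 features (4.59%, against 7.85% of all) and 8 genes (4.57%, against 7.00% of all) at an unadjusted p under 0.05. The methods' t-test also called 0 receptor features and 0 genes in each of these comparisons, with 32, 429 and 49 features and 6, 99 and 12 genes at an unadjusted p under 0.05. Over the 3 ages 2 receptor features passed, against 0.582% of all features, 1 of Gr63a and 1 of Ir7a, and 1 gene, Gr63a, against 0.116% of all genes. A single library moved the counts from 7 to 35 days: without the 35-day replicate 4, 217 receptor features (24.3%, against 4974 of all 45366 features) and 44 genes (25.1%, against 8.81% of all genes) passed.

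Dim receptor features had the level of the negative control spots, and that level differed between ages. The negative control spots, 308 per array and designed to bind no transcript, had mean levels of -9.57 (7 days), -10.39 (35 days) and -9.85 (45 days). The 401 receptor features that were on in no array had mean levels of -9.57, -10.36 and -9.85, and the 5901 other such features -9.55, -10.34 and -9.83. The 3 sets thus shifted together, by -0.81, -0.78 and -0.80 from 7 to 35 days and by 0.54, 0.50 and 0.51 from 35 to 45 days. All 894 receptor features had a median change of -0.81 from 7 to 35 days, of -0.29 from 7 to 45 days and of 0.52 from 35 to 45 days, against -0.41, -0.20 and 0.21 over all features. Of the 27 receptor features that were on in all 16 arrays, the 20 of Ir76a had a median change of 0.23 from 7 to 35 days, with 7 of them lower at 35 days. The other 7, from 6 genes, were all lower at 35 days, with a median change of -0.56 and a range of -0.85 (Ir75d) to -0.06 (Ir76b). Of the 455 receptor features at an unadjusted p under 0.05 from 7 to 35 days, 291 were on in no array, 159 in some and 5 in all 16. The 291 were all lower at 35 days and were 72.6% of the 401 features on in no array, beside 70.5% of the other features on in no array.

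**Figure D2:**
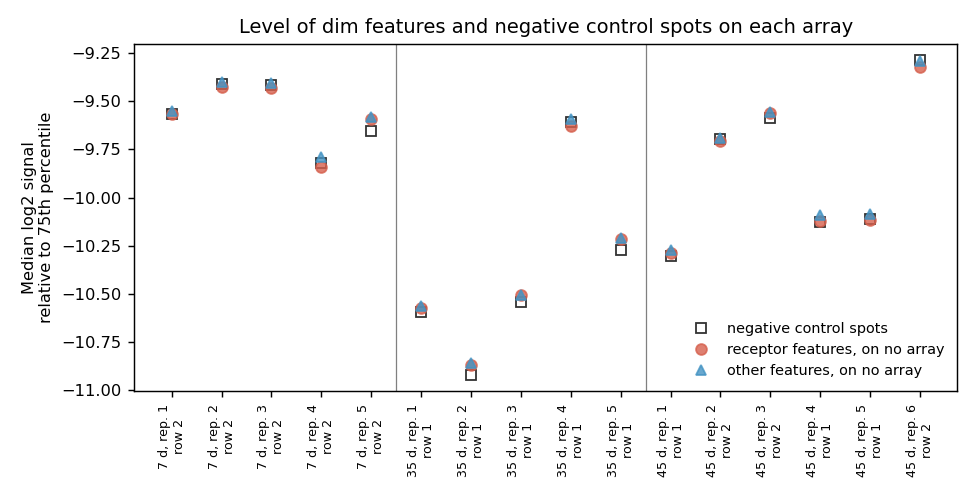
Median level (log2 signal relative to the 75th percentile, vertical axis) of the negative control spots, of the 401 receptor features on in no array and of the 5901 other features on in no array, for each of the 16 arrays, with the row of the slide under each array. The 3 symbols lie on each other in every array, and those of 35-day replicate 4 (near -9.6) lie above the other 35-day arrays (-10.92 to -10.27 for the control spots).

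This background also differed by the place of the array on its slide. The 7-day arrays all lay in row 2 of the slides and the 35-day arrays all in row 1, so for this pair of ages row and age cannot be told apart. At 45 days both rows held 3 arrays, and the negative control level was -10.31 to -10.11 in row 1 and -9.70 to -9.29 in row 2, with no overlap. Of the 35-day arrays, replicate 4 had a negative control level of -9.61, higher than the -10.92 to -10.27 of the other 4. Without that array, 217 receptor features passed the threshold from 7 to 35 days (24.3%, against 4974 of all 45366 features), 215 of them lower. Of these, 173 were on in no array and 44 in some, and none of the 27 that were on in all arrays was among them. When dim signals were raised to a floor 76 receptor features passed (8.50%, against 6.66% of all). When arrays were scaled on their negative control spots, an alternative chosen after seeing the data, 15 passed (1.68%, against 3718 of all 45366 features).

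Gr63a and Gr21a, which together form the carbon dioxide receptor of the antenna, have 3 features between them. The single Gr63a feature, A_09_P029176 (chromosome 3L), had levels of -7.53, -6.53, -6.58, -5.90 and -8.92 in the 5 arrays at 7 days, of -10.50, -9.89, -9.51, -9.56 and -9.65 at 35 days, and of -9.56 to -8.87 (median -9.31) at 45 days. It was well above background in 4 of 5, 0 of 5 and 1 of 6 arrays. The 7-day arrays were thus the high ones. They did not overlap those at 35 days, and 1 of them, replicate 5, fell within the range at 45 days. The ages differed in the test over all 3 (adjusted p = 0.0159 by feature and 0.0494 by gene). The mean level was -7.09 ± 1.18 at 7 days, -9.82 ± 0.41 at 35 days and -9.24 ± 0.29 at 45 days (SD, n = 5, 5 and 6). Neither pair passed: from 7 to 35 days the change was -2.73 ± 0.53 (SE, adjusted p = 0.0848) and from 7 to 45 days -2.14 ± 0.47 (adjusted p = 0.142). Since no 35-day array was well above background, the level there is only a bound. The mean 7-day level, as measured over all 5 arrays, was 2.38-fold above that bound. The change from 7 to 45 days was -2.20 within slide 1, -2.11 within slide 2 and -2.12 within row 2. The call over 3 ages was lost with the slide row as a term (adjusted p = 0.363), under quantile normalization (0.251), array median scaling (0.168) or normexp background correction (0.426), and without the 7-day replicate 2 (0.0582) or 3 (0.0549). It was also lost with variance trend and robust moderation, with the replicate block and with negative control scaling. By gene the call was lost without any 1 of 15 of the 16 arrays and held without 7-day replicate 5, which was the low one (adjusted p = 0.00082). Without that array the gene also passed from 7 to 45 days (adjusted p = 0.0213) and from 7 to 35 days (0.0152). Neither Gr21a feature was well above background in any array.

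Ir7a, an ionotropic receptor of taste neurons, has 11 features, of which 1 passed over the 3 ages. This feature, CUST_2578_PI429798866 (chromosome X), had levels of -7.62, -7.10, -7.04, -7.53 and -6.48 at 7 days, of -8.71, -8.43, -8.49, -8.31 and -8.21 at 35 days and of -8.68 to -7.88 (median -8.20) at 45 days. All 7-day arrays were above all older ones, and the 35-day and 45-day arrays overlapped. The adjusted p over 3 ages was 0.0276, and the change was -1.07 ± 0.24 (adjusted p = 0.152) from 7 to 45 days and -1.27 ± 0.25 (adjusted p = 0.0861) from 7 to 35 days. The feature was well above background in 4, 1 and 1 arrays, and the other 10 Ir7a features in 0 to 2 of the 16. The call was lost in 8 of the other settings, with the slide row as a term among them (adjusted p = 0.148), and when any of 6 single arrays was left out (7-day replicates 2, 3 and 5 and 35-day replicates 1, 2 and 3, adjusted p = 0.0511 to 0.0802), and the change from 7 to 35 days turned to 0.024 under quantile normalization. The 7 Ir7 genes together had 84 features, of which 60 were on in no array and none in all 16, with a median gene change of -0.26 from 7 to 45 days.

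**Figure D3:**
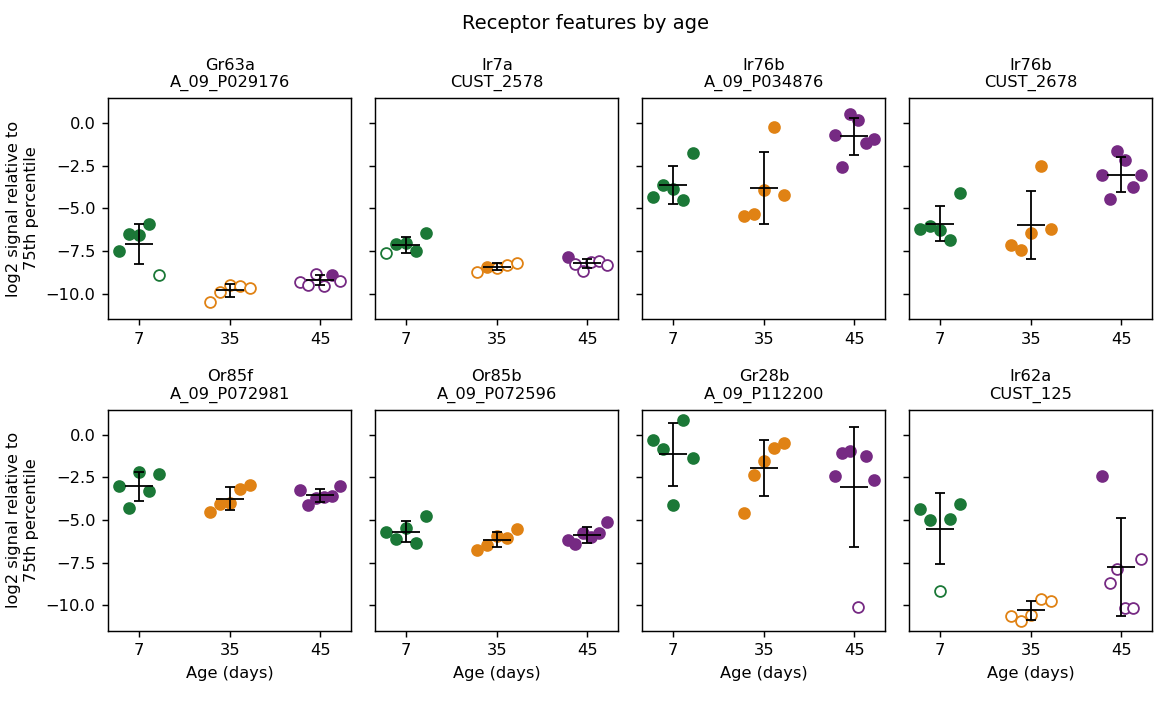
Level (log2 signal relative to the 75th percentile, vertical axis) of 8 receptor features at 7, 35 and 45 days; each point is 1 array, filled where the feature was well above background, with the mean and SD as bars, and the shared ending of custom feature names is left out. Gr63a and Ir7a are highest at 7 days, both Ir76b features are high at 45 days and on 35-day replicate 4, and Or85f and Or85b show overlapping ages.

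Among the odorant receptors, the 2 genes detected in every array showed no difference between ages beyond the spread of the arrays. Or85f (feature A_09_P072981, chromosome 3R) had levels of -3.03, -4.30, -2.18, -3.33 and -2.32 at 7 days, of -4.56, -4.10, -4.03, -3.17 and -2.95 at 35 days and of -4.14 to -3.02 (median -3.63) at 45 days. The 3 ages overlapped, and the change from 7 to 45 days was -0.53 ± 0.38 (adjusted p = 0.668 by gene). Or85b (feature A_09_P072596, chromosome 3R), expressed in a class of antennal neurons, had levels of -5.71, -6.10, -5.50, -6.37 and -4.76 at 7 days, of -6.75, -6.46, -5.94, -6.09 and -5.55 at 35 days and of -6.41 to -5.11 (median -5.91) at 45 days. Its change of -0.19 ± 0.33 (adjusted p = 0.844) from 7 to 45 days turned positive under quantile normalization (0.55), array median scaling (0.13) and negative control scaling (0.085) and without the 7-day replicate 5 (0.038).

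Or43b, an odorant receptor gene that overlaps Cul1, was well above background in 15 arrays. Its feature, A_09_P078546, had levels of -3.78 to -2.45 at 7 days and of -4.41 to -2.25 at 45 days, and at 35 days of -4.04, -2.71, -2.79, -9.82 and -5.48. Replicate 4 at 35 days was the 1 array in which it was not well above background. The change from 7 to 35 days was -1.82 ± 1.22 (adjusted p = 0.410 by gene), and it was -0.60 without that array.

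The odorant receptors that respond to pheromones, Or47b, Or65a, Or67d and Or88a, have 1 feature each. Or47b was well above background in 11 arrays with levels near the limit of detection, -9.16 to -6.81 over all arrays. Or67d, the receptor for the male pheromone cis-vaccenyl acetate, had levels of -5.06, -5.10, -9.54, -9.42 and -7.42 at 7 days, of -10.62 to -9.07 at 35 days and of -10.40 to -7.62 at 45 days, and was well above background in 3, 0 and 1 arrays. The 7-day arrays were split between high and low ones. Its change of -2.23 from 7 to 45 days (adjusted p = 0.551 by feature) did not pass. Nor did that from 7 to 35 days (adjusted p = 0.103). The mean 7-day level as measured, low arrays included, was 2.05-fold above the bound for 35 days. Or88a was well above background in 3 of the 7-day arrays and in 1 array of each older age, and Or65a was on in none. Over all 57 Or genes, 47 had a lower mean level at 45 than at 7 days and 10 a higher one, beside 66.0% of all genes lower. Their median change was -0.35, beside -0.21 over all genes and -0.28 for the negative control spots.

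Of the gustatory receptors for sweet compounds, 7 of 9 genes had features: Gr5a, Gr43a, Gr61a, Gr64a, Gr64c, Gr64d and Gr64f. None of their 11 features was on in all arrays, and 6 were on in none. Gr61a (feature A_09_P028126), a receptor for glucose and other sugars, was the most often detected, in 12 arrays, with levels of -3.33, -9.51, -6.71, -4.60 and -4.07 at 7 days, of -10.27, -9.69, -6.71, -5.03 and -5.65 at 35 days and of -9.64 to -2.60 (median -4.78) at 45 days. At each age it was high in some arrays and at the background level in others. Its change from 7 to 45 days was 0.13 ± 1.49 (adjusted p = 0.981). Gr43a, the fructose receptor, was on in 5 arrays of all 3 ages, with levels from -10.22 to -2.94. The median gene change of the sugar receptors was 0.04 from 7 to 45 days and -0.29 from 7 to 35 days.

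The broadly used receptors of bitter taste neurons, Gr32a, Gr33a, Gr39a, Gr66a, Gr89a and Gr93a, had 9 features, of which 6 were on in some arrays and 3 in none. Gr32a (feature A_09_P064236), which overlaps CG6230, was on in 13 arrays, with levels of -7.88 to -3.62 at 7 days, -9.80 to -2.06 at 35 days and -10.19 to -4.40 at 45 days. Gr66a (feature A_09_P053881), a marker of bitter neurons, had levels of -3.68, -7.83, -8.24, -6.42 and -8.15 at 7 days, of -10.44 to -9.19 at 35 days and of -9.68, -2.23, -0.32, -8.71, -8.61 and -9.15 at 45 days. At 45 days 2 arrays stood far above the other 4, and the 35-day arrays lay below all 7-day arrays. At 35 days no array had Gr66a well above background, so the level there is a bound. The mean 7-day level as measured, with 3 arrays well above background, was 2.78-fold above that bound (adjusted p of the change from 7 to 35 days = 0.0920). Its change from 7 to 45 days was 0.41 ± 1.84 (adjusted p = 0.946). The bitter list had a median gene change of -0.32 from 7 to 45 days and of -0.98 from 7 to 35 days.

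Gr28b, which has roles in warmth sensing and in bitter taste, has 6 features for its alternative transcripts, and these disagreed. Feature A_09_P112200 was well above background in 15 arrays, with levels of -0.34, -0.83, -4.14, 0.88 and -1.39 at 7 days, of -4.60, -2.37, -1.52, -0.78 and -0.52 at 35 days, and of -10.08 to -0.94 (median -1.83) at 45 days. The other 5 features were on in 1 to 5 arrays each. In the array where A_09_P112200 was dim, 45-day replicate 4, none of the 6 was on. The mean over the 6 features gave a change of -1.71 ± 0.76 (adjusted p = 0.541) from 7 to 45 days and of -2.25 ± 0.71 (adjusted p = 0.112) from 7 to 35 days, the largest from 7 to 45 days among the 10 receptor genes with a feature on in every array of 1 of these ages. Feature A_09_P056926 was on in 3 arrays at 7 days and in none at 35 days (change -3.66, adjusted p = 0.0920). Its mean 7-day level as measured was 2.68-fold above the bound for 35 days. Over all 58 Gr genes, 42 were lower and 16 higher at 45 than at 7 days, with a median change of -0.29, beside -0.21 over all genes, of which 66.0% were lower.

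Ir76b, a co-receptor used in taste and smell, had the 2 features with the largest positive change from 7 to 45 days among the 27 that were on in all arrays, but neither passed the threshold. Its feature A_09_P034876 (chromosome 3L) had levels of -4.37, -3.64, -3.88, -4.51 and -1.79 at 7 days, of -5.43, -5.35, -3.93, -0.24 and -4.21 at 35 days, and of -0.69, -2.60, 0.50, 0.20, -1.19 and -0.95 at 45 days. The custom feature CUST_2678_PI429798866 had levels of -6.20, -6.04, -6.28, -6.84 and -4.12 at 7 days, of -7.17, -7.47, -6.44, -2.51 and -6.19 at 35 days, and of -4.48 to -1.66 (median -3.05) at 45 days. Both features were high in the same arrays: all those at 45 days, replicate 5 at 7 days and replicate 4 at 35 days.

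The change of A_09_P034876 from 7 to 45 days was 2.85 ± 0.63 (adjusted p = 0.141) and that of CUST_2678_PI429798866 2.87 ± 0.59 (adjusted p = 0.105), with 1 array of each age inside the range of the other. Within slides the changes of A_09_P034876 were 3.07 and 2.75, and within row 2 the change was 2.62. From 35 to 45 days they were 3.05 ± 0.92 and 2.93 ± 0.87 (adjusted p = 0.456 for both). Neither feature passed with all arrays, and whether they passed depended on single arrays. Without 7-day replicate 5 both features passed from 7 to 45 days (adjusted p = 0.0362 and 0.0297). Without 35-day replicate 4 both passed over the 3 ages (adjusted p = 0.0157 and 0.0107). The other 10 Ir76b features were on in 0 to 6 arrays, and the gene mean changed by -0.43 ± 0.39 (adjusted p = 0.699), so the gene mean and the bright features had opposite signs.

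A custom feature of Ir48c, CUST_7934_PI429798866, followed a like pattern. It was well above background in 0 of 5 arrays at 7 days, in 1 of 5 at 35 days and in 5 of 6 at 45 days, with levels of -9.54 to -8.07, of -9.44, -10.76, -10.00, -6.12 and -9.14, and of -8.10 to -4.03 (median -6.29). As with Ir76b, the high array at 35 days was replicate 4. The mean 45-day level of the feature as measured was 2.46-fold above the bound for 7 days (change 2.60 ± 0.62, adjusted p = 0.187). The other 10 Ir48c features were on in 0 to 4 arrays, and the gene overlaps ths, which encodes a fibroblast growth factor. The feature was chosen after its values were seen.

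Ir25a, the most widely used ionotropic co-receptor, has 41 features, of which none was on in all arrays. The number of its features that were on was 31, 21, 0, 0 and 2 in the 5 arrays at 7 days, 20, 0, 33, 1 and 1 at 35 days and 0 to 2 at 45 days. Its features were thus on together in a few arrays and off together in the others, and all 4 arrays with 20 or more lay on slide 1. Slide 1 also held 35-day replicate 2 and 3 arrays at 45 days, on which 0 or 1 feature was on. Its gene mean changed by -1.55 ± 0.68 (adjusted p = 0.538) from 7 to 45 days. Ir93a, a co-receptor for temperature and humidity sensing, had 11 of its 12 features on in 4 arrays, 7-day replicates 1 and 2, 35-day replicate 4 and 45-day replicate 5, and 0 to 2 in all others. Ir8a, the co-receptor of acid-sensing neurons, had 7 of 11 features on in no array and the others in 1 or 2. The co-receptors together had 76 features, 2 on in all arrays, 57 in some and 17 in none, and all 4 genes had lower mean levels at 45 than at 7 days, as did 147 of all 175 receptor genes (84%) and 66.0% of all genes.

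Other Ir genes also had 50% or more of their features on in some arrays but not in all, from 1 array to 15 (Ir76a). All 60 Ir genes have 10 or more features, which gives 960 pairs of a gene and an array. In 47 of these pairs 50% or more of the gene's features were on, 20 of 300 at 7 days, 13 of 300 at 35 days and 14 of 360 at 45 days, and they fell on 13 genes. Ir76a had 15 such arrays, Ir47a 6, Ir68a, a receptor for moist air, 5, Ir62a and Ir93a 4 each, Ir25a and Ir76b 3 each and Ir31a 2, and the other 5 genes had 1 each. No gene had all 16.

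Ir31a is an example with no intermediate values. All 21 of its features were on in 7-day replicate 4, 17 of 21 in 45-day replicate 2 and at most 1 in each of the other 14 arrays. Its gene level was -4.51 and -6.39 in those 2 arrays and -10.72 to -9.18 in the others. Ir64a, an acid receptor, had all 11 features on in 45-day replicate 6, with a gene level of -2.63, and Ir60e had 10 of 11 on in 7-day replicate 1. The features of 1 gene share transcripts and are not independent. In bulk pools such as these, fewer cells of a type and less RNA per cell cannot be told apart, and what set these arrays apart was not tested.

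**Figure D4:**
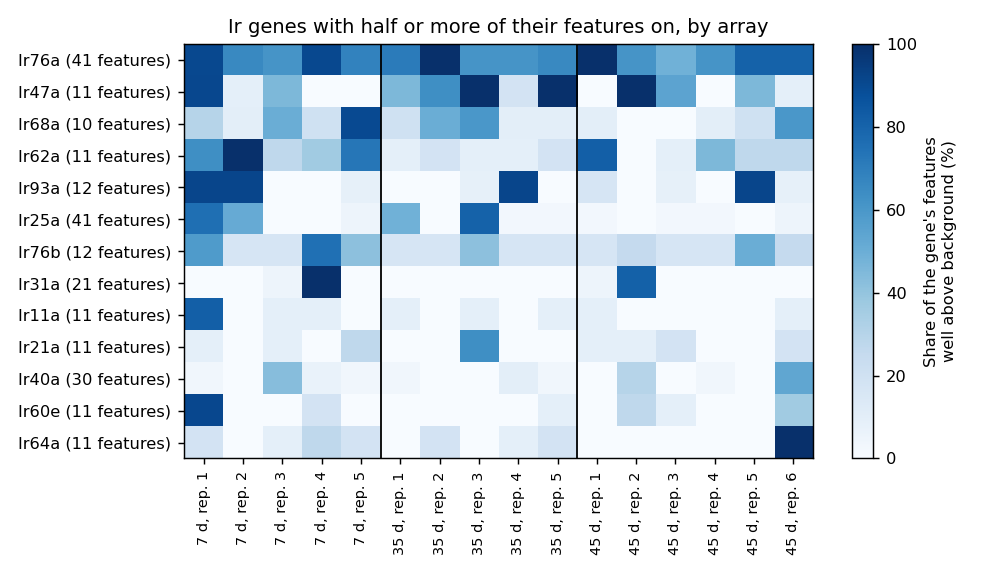
Share of the features of a gene (%, colour scale) that were well above background, for the 13 Ir genes with 50% or more of their features on in at least 1 array (rows) and the 16 arrays grouped by age (columns). Ir64a is dark in 45-day replicate 6 alone, Ir31a in 7-day replicate 4 and 45-day replicate 2, and Ir76a reaches 50% in 15 arrays.

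Ir62a, a gene that overlaps Iml1, had the largest change from 7 to 35 days among the 19 receptor genes with a feature on in every array of 1 of these ages. Its feature CUST_125_PI429798866 (chromosome 3L) had levels of -4.34, -5.02, -9.19, -4.93 and -4.09 at 7 days, of -10.64, -10.91, -10.55, -9.66 and -9.76 at 35 days and of -10.16 to -2.43 (median -8.28) at 45 days. The 7-day and 35-day arrays did not overlap, and at 45 days only replicate 1 was well above background. The mean 7-day level of the feature as measured was 7.11-fold above the bound for 35 days (change -4.79 ± 0.89, adjusted p = 0.0760). The gene mean changed by -2.74 ± 0.62 (adjusted p = 0.112). Without 7-day replicate 3, which was low, the adjusted p of the feature was 0.00088, and without 35-day replicate 4 it was 0.0116. From 7 to 45 days the gene mean changed by -1.15 ± 0.77 (adjusted p = 0.649).

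Ir47a had 50% or more of its 11 features on in 6 arrays of all 3 ages, and its mean change of 1.69 ± 1.06 from 7 to 35 days did not pass (adjusted p = 0.375). The gene overlaps SLO2 and Ir47b. Among the genes for temperature and humidity sensing, Ir21a, Ir40a, Ir68a and Ir93a, 47 of 63 features were on in some arrays and 16 in none. The 4 gene means were all lower at 45 than at 7 days, as were 84% of all receptor genes and 66.0% of all genes. The median change of the 4 was -0.90, beside -0.21 over all genes. The mean of Ir68a changed by -1.47 ± 0.93 (adjusted p = 0.631). Over all 60 Ir genes, 58 were lower and 2 higher at 45 than at 7 days, beside 66.0% of all genes lower. Their median change was -0.27, beside -0.28 for the negative control spots.

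Ir76a, a receptor for amines in neurons that also use Ir25a and Ir76b, was the gene with the most features on. Its features agreed closely when they held the same place in the series of 10 printed for each of its 4 transcripts and differed widely between places. At 1 place the features of the 4 transcripts differed by a median of 0.20 within an array, whereas mean levels by place ran from -0.34 to -9.42. Probe sequences were not used here, and features at 1 place may be 1 probe printed under 4 names, so the 20 Ir76a features that were on in all arrays may stand for as few as 6 probes, those of 5 places and the catalog feature. Levels of different probes are not relative amounts of RNA. Places 1 to 6 held features that were on in 15 or 16 arrays, and places 7 to 10 ones that were on in 2 to 10. What the places mean along the transcript is not given in the sources used here. Over all custom features of the array the share that was on in all 16 arrays also fell, from 62.1% at place 1 and 64.0% at place 2 to 42.9% at place 10.

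The catalog feature of Ir76a, A_09_P034741, had levels of -2.32, -2.28, -2.19, -2.26 and -2.46 at 7 days, of -1.29, -1.32, -2.09, -1.34 and -1.73 at 35 days and of -3.19 to -0.96 (median -1.71) at 45 days. The 35-day arrays were all above the 7-day arrays, and the 45-day arrays spread over both. Its change from 7 to 35 days was 0.75 ± 0.21 (adjusted p = 0.0921). With negative control scaling it was 1.56 (adjusted p = 0.0171). That scaling raises this change for every feature alike, because the control spots themselves changed by -0.81 from 7 to 35 days. Age and slide row cannot be told apart in that shift. In that setting 3718 of all 45366 features passed, so the pass is not specific to Ir76a. Custom features at place 1 had mean levels of -2.52, -1.78 and -1.95 at the 3 ages, in the same order. Mean levels at places 2 and 3 were also higher at 35 than at 7 days, and those at places 4 to 10 were lower, at place 4 (-1.63 and -1.85), place 5 (-1.94 and -2.15) and place 6 (-3.85 and -3.91) by less than at the dim places 7 to 10. Place 5 was lowest at 45 days (-2.51). The mean over the 41 features changed by -0.35 ± 0.59 (adjusted p = 0.774) from 7 to 35 days and by -0.07 ± 0.78 (adjusted p = 0.986) from 7 to 45 days.

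**Figure D5:**
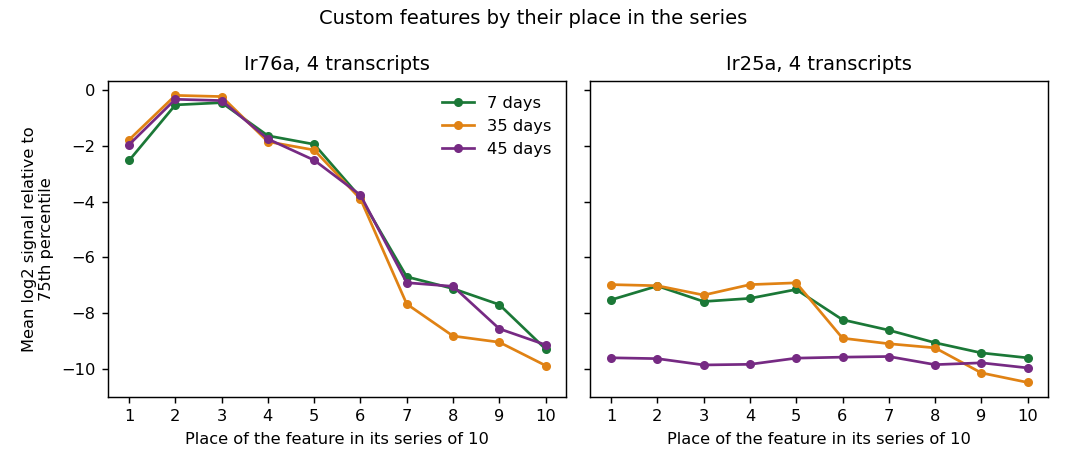
Mean level (log2 signal relative to the 75th percentile, vertical axis) of the custom features of Ir76a and Ir25a by their place in the series of 10 (horizontal axis), averaged over 4 transcripts, with 1 line per age. Ir76a runs from near 0 at places 2 and 3 to near the background at place 10 at each age. The mean of Ir25a lies above background at places 1 to 5 at 7 and 35 days and near it at 45 days. Those higher Ir25a means rest on a few arrays of slide 1. Of 41 features, 31, 21, 0, 0 and 2 were on in the 7-day arrays and 20, 0, 33, 1 and 1 at 35 days.

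The remaining features that were on in all arrays did not pass the threshold between ages. Feature CUST_5634_PI429798866 of Ir75d, a receptor of antennal neurons, had levels of -3.57, -3.50, -2.08, -2.12 and -2.04 at 7 days, of -4.35, -3.83, -3.87, -3.21 and -2.30 at 35 days and of -4.27 to -2.58 (median -3.34) at 45 days, while the other 9 Ir75d features were on in 0 to 3 arrays. The ages overlapped, and the change from 7 to 45 days was -0.71 ± 0.45 (adjusted p = 0.659). Features CUST_6233_PI429798866 of Ir94a and CUST_9968_PI429798866 of Ir41a changed by -0.56 ± 0.43 and -0.48 ± 0.29 from 7 to 45 days (adjusted p = 0.659 for both). As for Ir75d, all other features of these 2 genes were on in 0 to 2 arrays.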

How the data were processed

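Sorted MNs at 3 ages were profiled on 16 single-colour arrays, 1 per pool. The deposited scanner files hold spot intensities from Agilent Feature Extraction, background-adjusted by that software; the design build is dm3. The deposited log2 table is, per the authors, scaled to the 75th percentile, with array medians near 0, and was used as an alternative only. Outlier and control spots were left out, spots of a feature were averaged, each array's 75th percentile was subtracted on the log2 scale, and limma (version 3.58.1, run under R 4.3.3) tested ages, with Benjamini-Hochberg adjustment over the whole array. The script was tested on simulated data. The number of arrays limits the precision. Pairs of ages were fitted on their arrays alone.

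Of 45366 features, 35007 had 1 symbol. Of the receptor features, 752 were named by accession and 142 through the study's list of array genes. The members and gene lists were chosen with earlier results of these data known. Named genes are those past a threshold, those on in all arrays, the listed families and, per pair of ages, those with the 5 largest gene changes among genes with a feature on in every array of 1 age. Alternatives were other scalings, normexp (offset 50, on the median spot signal, in place of the mean), a floor, filters, other moderation, the methods' t-test or ANOVA, slide, row and replicate terms and leaving out arrays. Replicates are separate pools per the labels. Bounds take, on each array of an age where no array had the feature on, the higher of its own signal and the lowest signal well above background. The brighter age was taken as measured, dim arrays included, so a fold above a bound is not a strict minimum.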

Additional observations from a re-analysis of the deposited data

Results flagged for a closer look

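In 51 groups of 5 or 6 arrays, each the values of 1 described feature or gene at 1 age, 5 held an array separated from all others by a gap too large for the range of the group (Dixon's test). For independent groups of normally distributed values the test marks about 1 in 20 by chance. These groups were chosen with earlier results of these data known, and the 2 Ir76b features were high in the same array. The count therefore cannot be read against that rate. Both bright Ir76b features were far above the other 35-day arrays in replicate 4, at a level of -0.24 for A_09_P034876 and of -2.51 for CUST_2678_PI429798866. The Gr28b feature A_09_P112200 was at -10.08 in 45-day replicate 4, the array with the lowest share of spots well above background (56.7%). The Ir62a feature CUST_125_PI429798866 was at -2.43 in 45-day replicate 1, above its group, and at -9.19 in 7-day replicate 3, below its group.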

How the results depend on the processing

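The number of arrays and the dim signal of most receptor features limit these results, and counts of 0 do not show that levels were alike. The cause of each shift below was not tested.

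Between 7 and 45 days, 2 receptor features (Gr63a and Ir7a) passed with all 3 ages in one model (0.224%, against 0.465% of all). When 1 array was left out 0 to 3 features and 0 to 1 genes passed. The highest counts were without 7-day replicate 5 (0.336%, against 0.529% of all features, and 0.571%, against 0.146% of all genes). Between 7 and 35 days, 3 features passed under quantile normalization (0.336%, against 0.159% of all). With a floor on dim signals it was 76 features (8.50%, against 6.66% of all) and 16 genes (9.14%, against 4.67% of all). With all 3 ages in one model it was 2 features (0.224%, against 0.624% of all) and 1 gene (0.571%, against 0.154% of all). Negative control scaling (chosen after seeing the data) gave 15 features (1.68%, against 3718 of all 45366) and 0 genes (against 7.69% of all). With 1 array left out, 0 to 217 features and 0 to 44 genes passed. The highest counts, without 35-day replicate 4, were 24.3% of features (against 4974 of all 45366) and 25.1% of genes (against 8.81% of all). Between 35 and 45 days every alternative gave 0 features and 0 genes. Over the 3 ages, against 2 features and 1 gene, 0 features and 0 genes passed under quantile normalization, array median scaling and normexp correction. The same held for variance trend and robust moderation, the slide row as a term and the replicate block. With the filter on dim features 0 of 45 receptor features and 0 of 19 genes passed. The Gr63a and Ir7a features were not among those 45, so the filter could not test their calls. With a floor or with negative control scaling it was 1 feature (Gr63a and Ir48c, 0.112%, against 0.531% and 1.97% of all features) and 0 genes. The methods' ANOVA and slide as a block each gave 0 genes. So did the 7 genes with features on in all arrays, but Gr63a is not among them. The brightest feature of a gene gave 2 (Gr63a and Ir7a, 1.14%, against 0.293% of all genes). Leaving out 1 array gave 0 to 187 features, the highest without 35-day replicate 4 (20.9%, against 8.34% of all). By gene it gave 0 to 1, the 1 without 7-day replicate 5 (0.571%, against 0.139% of all). Of 20 named changes between ages, none passed; 4 passed with a floor, 4 with all 3 ages in one model, 2 with negative control scaling and 0 to 4 when 1 array was left out.

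Same-numbered arrays correlated weakly in their deviations from the age means, by -0.06 to 0.20 (7 and 45 days), -0.09 to 0.14 (7 and 35 days) and -0.01 to 0.19 (35 and 45 days). The medians were -0.02, 0.04 and 0.09, beside 0.02, 0.02 and -0.02 for pairs with unlike numbers. In turn 1, 0 and 3 of 5 arrays correlated best with the array of their own number. With the replicate block 0 receptor features and 0 genes passed in each comparison and over the 3 ages, where the adjusted p of Gr63a was 0.0923 and that of Ir7a 0.135.

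Directions turned for Or85b from 7 to 45 days (main change -0.19), to 0.55 under quantile normalization, 0.13 with array median scaling, 0.085 with negative control scaling, with a range of -0.36 to 0.038 when 1 array was left out, above 0 without 7-day replicate 5, and for Ir7a from 7 to 35 days, to 0.024 under quantile normalization.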
